A study of Mus musculus with 8 samples.

Results

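The immediate early genes Fos, Jun, Junb, Jund, Egr1, Ier2, Ier5, Atf3, Klf6 and Btg2, 10 of the 17597 genes in the deposited table, were examined in mouse embryonic stem (mES) cells. They were chosen by name, as genes of short-lived mRNAs with few exons, and all 10 had a row in the table. The series holds 8 total RNA libraries from the METTL3-FKBP12F36V line, in which a degron tag on METTL3 lets the small molecule dTAG-13 remove the protein. METTL3 is the catalytic subunit of the enzyme that writes N6-methyladenosine (m6A) on RNA. One group of 4 libraries was kept without dTAG-13 and the other group of 4 had dTAG-13 for 26 h, and each group holds 2 clones (C3 and H5) with 2 replicates of each, every clone being a single edited line. All cells have a Cast x 129S background, carry an Xist gene under a TetOn promoter and had no doxycycline, so both groups share the tag and the uninduced Xist allele. The cells were grown in serum with LIF on a layer of inactivated mouse fibroblasts. The labels give the molecule as total RNA but their extraction text describes chromatin RNA. The study's methods for its total RNA libraries describe direct lysis of washed C3 and H5 cells in TRIzol to isolate total RNA.

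Immediate early genes are switched on within minutes of a signal such as serum or a growth factor, without the need for new protein synthesis. Many of them encode transcription factors that carry the signal on to later genes. Their mRNAs are usually unstable, and AU-rich elements in the 3′ untranslated region (UTR), which recruit deadenylation and decay factors, are a well-known reason. m6A is another mark that can shorten the life of an mRNA and is found mostly in long internal exons, in the last exon and around the stop codon.

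The level given for each gene is the mean count, the deposited mean over all libraries of reads per gene after division by a scaling factor for each library. It averages libraries with and without dTAG-13, so it describes how abundant a transcript was in this experiment and not how it responded to the loss of METTL3. No value per library was analysed here, and no spread between replicates or difference between the groups is reported. The lowest values of the column are sums of fixed steps, 1 step for each library, and these steps gave the 8 scaling factors, which ran from 0.702 to 1.44. All 504 distinct values under 0.8 were matched by whole reads to within 3e-06. If the libraries had equal scaled totals, at the summed mean count of about 16300000, the factors imply about 11400000 to 23400000 counted reads per library. Intervals below are 95% intervals for counting error alone, computed from these factors, and the spread between cultures is not in them.

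The 10 genes spanned a wide range of abundance. By mean count, Klf6, a zinc finger factor of the Krüppel-like family, stood first at 1526 (95% interval 1499 to 1554). Ier2, a small nuclear regulator, followed at 1327 (1301 to 1352). Junb, a subunit of the dimeric factor AP-1, had 799 (779 to 819), and the antiproliferative gene Btg2 had 753 (734 to 772). The lower part of the range held Jund at 439, Jun at 238 and Ier5 at 143. The remaining 3 genes were the least abundant by this measure: Egr1 had a mean count of 87.9 (81.3 to 94.5), Fos of 83.2 (76.8 to 89.6) and Atf3 of 59.8 (54.4 to 65.2). Egr1 and Fos could not be placed in order by mean count, since their counting intervals overlap. Klf6 exceeded Atf3 by 25.5 times in mean count.

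Levels of different genes are comparable only per length, so the mean count was divided by the length of all annotated exons of the gene. On this scale Ier2 led with 872 per kb (855 to 888), which placed it at the 94.6th percentile of the 17373 genes of known length. Klf6 (348 per kb) and Junb (347 per kb) followed with overlapping intervals, near the 85.6th percentile. Btg2 (274 per kb) and Jund (263 per kb) also overlapped each other, at the 82.1st and 81.4th percentiles. Jun had 74.5 per kb (59.7th percentile) and Ier5 43.7 per kb (51.3rd percentile). Fos at 35.4 per kb, Atf3 at 27.8 per kb and Egr1 at 19.6 per kb lay below the median gene, which had 39.9 per kb. Thus 7 of the 10 genes were above the median gene and Ier2 stood 44.5 times above Egr1. The 7 include Ier5, which lay below the median gene under every other setting tried. The position of Egr1 rests on its length: 2 transcripts of 4484 and 3036 bases are annotated, and with the shorter one its level was 29.0 per kb beside 31.4 per kb for Atf3 on the same measure. Counting errors of 7.46% for Egr1 and 9.04% for Atf3 make these intervals overlap, so the pair could not be placed in order there.

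**Figure D1:**
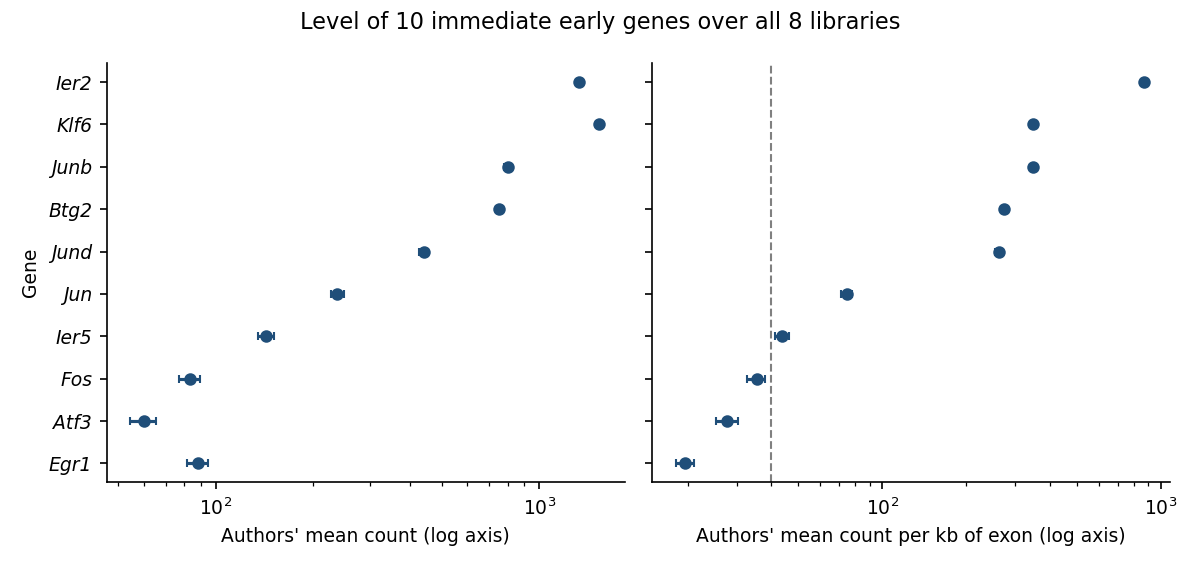
Level of each of the 10 genes as mean count (left) and as mean count per kb of exon (right), both on log axes. Points are the deposited means over all 8 libraries, bars are 95% intervals for counting error alone, and the dashed line is the median gene (39.9 per kb). Ier2 stands first and Fos, Atf3 and Egr1 lie left of the line.

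**Figure D2:**
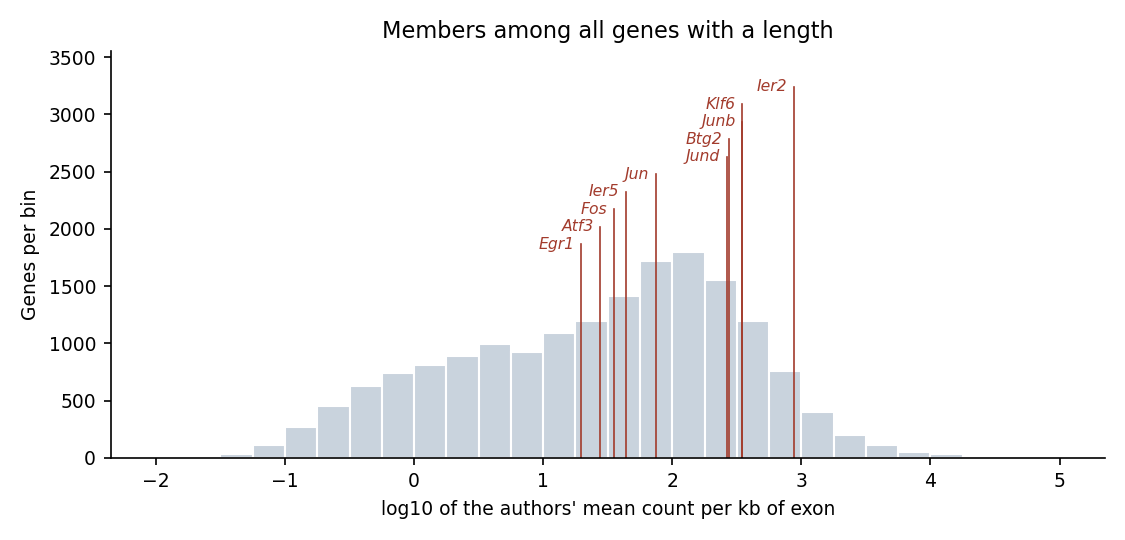
Number of genes (vertical axis) in bins of the log10 mean count per kb of exon (horizontal axis), over the 17373 genes with a length. Red lines mark the 10 immediate early genes, which run from the 41.0th percentile (Egr1) to the 94.6th (Ier2).

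AP-1 is a dimer of a JUN protein with a FOS, ATF or another JUN protein, and in these cells its JUN side was far more abundant as RNA. The 3 JUN genes summed to 685 per kb and the 4 FOS genes to 46.6 per kb, a ratio of 14.7. Junb made up 50.7% of the JUN sum, Jund 38.5% and Jun 10.9%. Junb was thus 4.66 times and Jund 3.53 times the level of Jun per kb. Within the FOS family, Fos held 75.9% of the sum. Fosl1 and Fosl2 encode the Fra proteins and lay lower per kb, at 0.170 and 0.137 of the level of Fos. By mean count their order was reversed, with 47.1 for Fosl2 and 12.2 for Fosl1 beside 83.2 for Fos. The exons of Fosl2 cover 9680 bases and those of Fos 2352, so the FOS shares and the JUN to FOS ratio depend on these lengths. Fosb was near the limit of detection with a mean count of 2.39 (1.31 to 3.47). Atf3, a stress-induced factor that can pair with JUN proteins, held 40.1% of the sum over itself and 4 related basic leucine zipper genes. Its nearest relative in level was the AP-1 repressor Jdp2 at 24.5 per kb, whose counting interval for the mean count (47.6 to 57.8) overlaps that of Atf3.

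Among the zinc finger factors, Egr1 was low, and the other EGR genes were lower still. Egr1 supplied 86.4% of the EGR sum, while Egr2, Egr3 and Egr4 had mean counts of 6.57, 3.58 and 0.746. Klf6 ranked 6th of 17 Krüppel-like genes per kb. The genes above it were Klf2 (524 per kb), Klf9 (476), Klf4 (464), Klf10 (426) and Klf8 (371). Klf2 and Klf4 belong to the naive pluripotency network, and Klf6 had 0.749 of the level of Klf4 per kb. By mean count the order was reversed, with 1526 for Klf6, 1415 for Klf4 and 967 for Klf2, so the rank of Klf6 depends on length. Klf5, a further pluripotency factor of the family, had 136 per kb.

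Ier2 dominated the IER genes with 84.3% of their sum and was 19.9 times as high as Ier5 per kb. Ier2 and Ier5 are related in sequence, as is Ier5l (32.7 per kb), while Ier3 (85.4 per kb) shares only the name and the early response. Btg2 was the leading gene of the BTG/TOB family, whose proteins bind the CCR4-NOT deadenylase and promote mRNA decay. It held 45.0% of the summed level of 5 genes and was 2.45 times the level of Btg1. Tob1, Btg1 and Btg3 were close to each other at 114, 112 and 93.9 per kb, and Tob2 had 15.4 per kb. Btg4, the remaining gene of that list, had no row in the table.

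**Figure D3:**
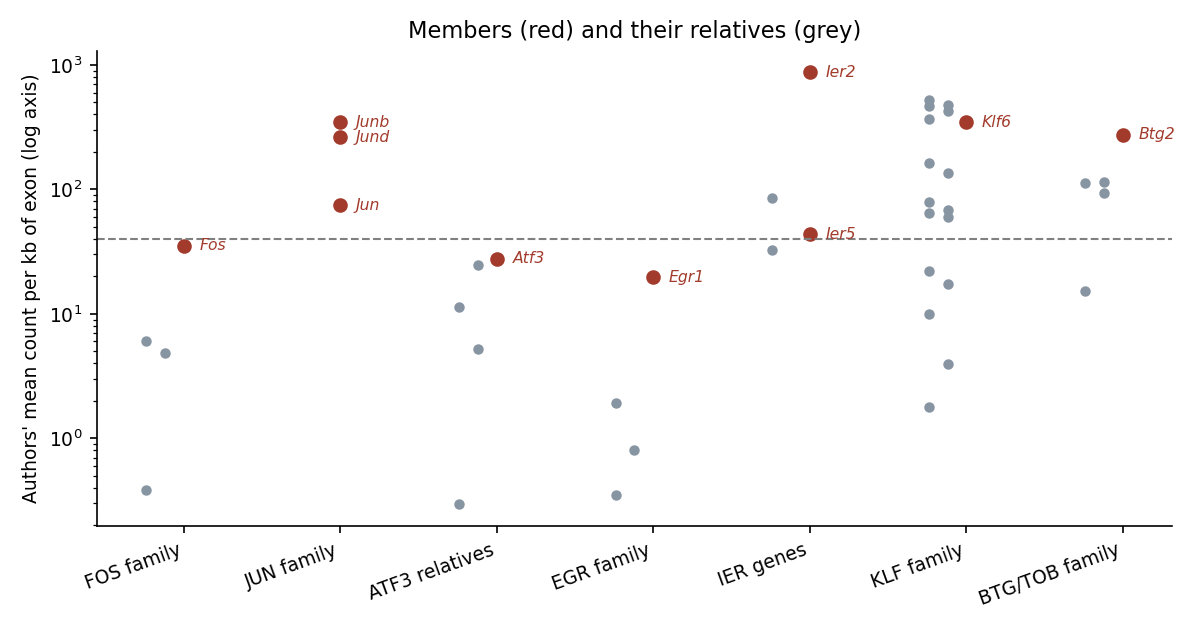
Mean count per kb of exon (log axis) for the members (red, named) and the other genes of their families (grey), by family. Each point is 1 gene, and the dashed line is the median gene (39.9 per kb). A member is the top gene of the FOS, JUN, ATF3, EGR, IER and BTG/TOB groups, while Klf6 is 6th of 17 in its family.

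The levels of other immediate early genes covered the whole range of the members. A list of 35 such genes had a median of 117 per kb, with 24 of 35 above the median gene, beside a median of 169 per kb and 7 of 10 for the members. The highest of them were Mcl1, an apoptosis inhibitor (2307 per kb), Id1, an inhibitor of basic helix-loop-helix factors (1120 per kb), and the kinase gene Sgk1 (698 per kb). The lowest were Dusp2, a phosphatase gene, and the nuclear receptor genes Nr4a2 and Nr4a3, with mean counts of 8.92, 4.32 and 0.391. Nr4a1, the relative of the last pair, was readily measured at 76.2 per kb.

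RNA of the factors that switch immediate early genes on was detected, while their protein and activity were not measured. Mkl1, Crem, Elk4 and Elk3 lay below the median gene (39.9 per kb) and the others above it. Srf, which binds serum response elements, had 317 per kb, and Elk1, its ternary complex partner, had 77.7 per kb. The other ternary complex genes Elk4 and Elk3 had 19.0 and 17.3 per kb. The actin-regulated SRF cofactors Mkl2 and Mkl1 had 43.3 and 23.3 per kb. Of the CREB group, Atf1 had 298, Creb1 123 and Crem 23.2 per kb.

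The labelled cell type was borne out by its markers. All 10 stem cell markers lay above the median gene, with Pou5f1 at 5309, Nanog at 2646 and Sox2 at 1674 per kb. Pou5f1 was 6.09 times as high as Ier2. Fibroblast genes were also looked at, since feeder cells express immediate early genes too. Of 12 feeder markers 5 were above the median gene, namely Sparc (806 per kb), Vim (437), Fn1 (423), Acta2 (47.1) and S100a4 (62.1st percentile per kb), and Thy1 (38.7 per kb) lay just below it. Of the list, 4 genes had a mean count under 10. The fibrillar collagen genes had mean counts of 19.8 for Col1a1, 13.8 for Col1a2 and 8.38 for Col3a1, and Lum and Postn had 1.45 and 0.768. In bulk RNA, fewer cells of a type and less RNA per cell cannot be told apart. How much of each member's RNA came from feeder cells was not tested.

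The members have few exons. In the GENCODE M21 annotation of GRCm38, Jun, Junb, Jund, Ier2 and Ier5 have a single exon in the transcript taken for each gene, Btg2 and Egr1 have 2, and Fos, Atf3 and Klf6 have 4. Few exons were part of how the genes were chosen, and among 13031 protein-coding genes whose mean count reached 10 (the expressed coding genes) the median was 9 exons and 2.64% had 1. With so few exons the last one makes up most of the transcript, so its share and length restate how the genes were chosen. In the 5 genes with several exons the last exon covered from 56.2% of the transcript in Egr1 to 92.4% in Btg2. Transcripts as a whole were not long, at a median of 2426 bases against 3000, and coding sequences were short, at 981 against 1425 bases. The share of the transcript that is 3′ UTR ran from 26.8% in Junb to 80.2% in Btg2.

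Some members lie close together on chromosome 8: Ier2 (84661331 to 84662852) and Junb (84974484 to 84978718) are 312 kb apart, and Jund (70698949 to 70700616) is 13961 kb from Ier2. Btg2, Ier5 and Atf3 share chromosome 1 but are at least 21017 kb apart. Several of the genes overlap a transcript of the other strand, which matters because the strand setting of the counting is uncertain: the study's methods give default parameters and spell out no strand, while the name of the deposited table carries the word reverse. Of the exon bases of Jund, 52.6% are shared with the antisense gene Gm11175, and of those of Jun, 7.28% with the antisense gene Junos. Neither antisense gene has a row in the table. Junb shares 173 exon bases (7.52%) with Prdx2, a peroxiredoxin gene on the other strand with a mean count of 5808. The values of Jund, Jun and Junb could therefore include antisense reads, and this was not tested.

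AU-rich pentamers (ATTTA) were frequent in the members' 3′ UTRs. Short-lived mRNAs were part of how the genes were chosen, and AU-rich elements are a known reason for short life. Their frequency may therefore partly restate that choice. The pentamer was present in 9 of 10 members, in 28 of 35 other immediate early genes (80.0%) and in 64.8% of the 13031 coding genes. Klf6 had 7 copies, Btg2 had 5, Fos and Jun had 4 each, Atf3 had 3, Junb, Egr1 and Ier5 had 2 each and Jund had 1. Ier2, the most abundant member per kb, had none. Per kb of 3′ UTR the members had a median density of 2.26, with the highest in Fos (4.91), Junb (4.12) and Jun (3.24). The median was 2.75 over 34 other immediate early genes and 1.32 over 12170 expressed coding genes. Genes with a 3′ UTR under 100 bases were left out of these medians. The longer word TATTTAT, which contains ATTTA, was found in 6 of 10 members, in 19 of 35 other immediate early genes and in 3523 of the 13031 coding genes. In Fos the copies begin 656 and 680 bases into a 3′ UTR of 815 bases.

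The windows around TATTTAT are shown because they hold the longer of the AU-rich words searched (27 bases each, RNA strand written as DNA, GRCm38, with the word in capitals). The word begins 1171 bases into the 1233 bases of 3′ UTR in Jun and 1127 bases into 1186 in Atf3, whereas in Btg2 it begins 103 bases into 2199. The sequences lie at chr12:85477104-85477130 and chr12:85477128-85477154 (plus strand, Fos), chr4:95049080-95049106 (minus strand, Jun), chr8:70700360-70700386 (plus strand, Jund), chr1:191170339-191170365 (minus strand, Atf3), chr13:5868491-5868517 and chr13:5868944-5868970 (plus strand, Klf6), and chr1:134077250-134077276 (minus strand, Btg2).
Fos first copy: gttttcaattTATTTATtaagatggat
Fos second copy: gattctcagaTATTTATatttttattt
Jun: tgcttgtgcaTATTTATaatagcgttc
Jund: gattccgcccTATTTATgtttctactc
Atf3: aaatattactTATTTATcccagtattc
Klf6 first copy: ctacgtctctTATTTATgccttgagga
Klf6 second copy: acaccggctgTATTTATtatgtaacat
Btg2: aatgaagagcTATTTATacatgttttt

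**Figure D4:**
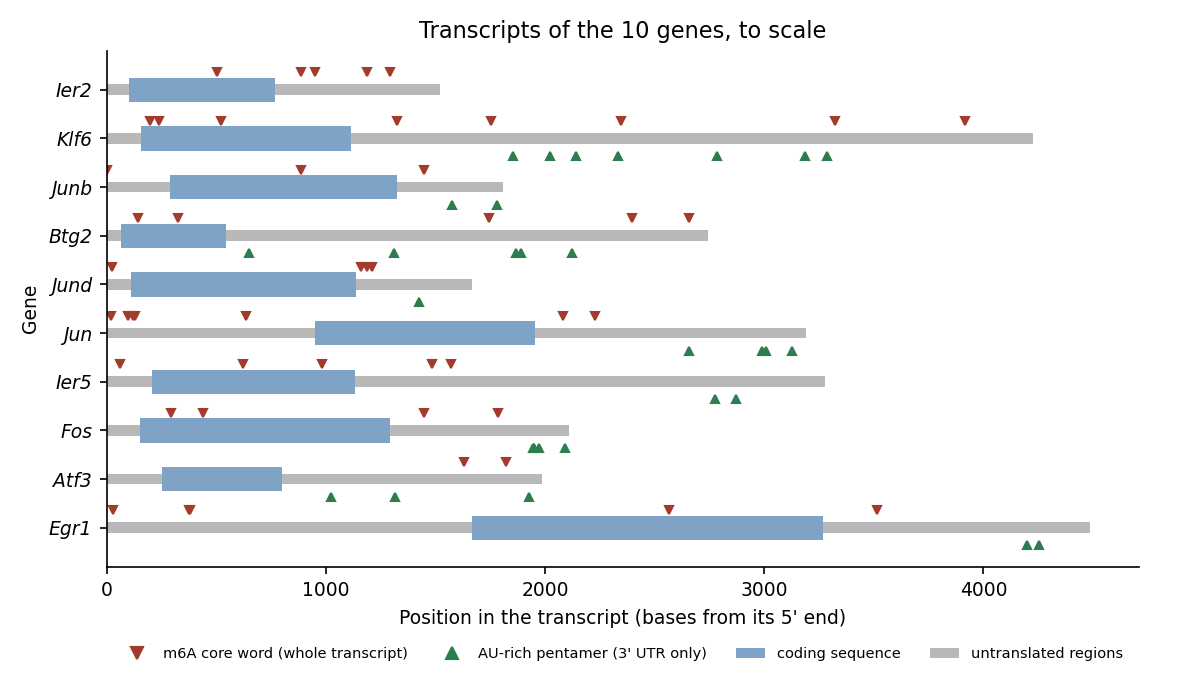
Transcripts of the 10 genes drawn to scale in bases from the 5′ end, with the coding sequence in blue and untranslated regions in grey. Red triangles above mark GGACT anywhere in the transcript and green triangles below mark ATTTA in the 3′ UTR. Ier2 has no green mark, and every transcript has at least 1 red mark in its 3′ UTR.

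The word GGACT is the form of the m6A consensus that METTL3 methylates most readily, and it marks where a member could carry the modification without showing that it does. All 10 transcripts contained it, as did 91.8% of the 13031 coding genes. Counts per transcript ran from 2 in Atf3 to 8 in Klf6. The density was highest in Ier2 at 3.29 per kb, followed by Jund (2.40), and 9 of 10 members exceeded the coding-gene median of 1.05 per kb. The exception was Atf3 at 1.01 per kb. The median was 1.86 per kb over the members and 1.53 per kb over the 35 other immediate early genes. In the 3′ UTR, which had a median length of 1201 bases in the members and 936 in coding genes, 10 of 10 members had the word against 58.4% of coding genes and 74.3% of the other immediate early genes. In the coding sequence it was present in 7 of 10 members and in 77.4% of coding genes. With all 18 words of the m6A consensus (DRACH), of which GGACT is 1, the result was the opposite: only 2 of 10 members, Jun and Klf6, were above the median of 20.1 per kb, and the members' median was 19.0. The members were also richer in G and C, with a median of 53.9% of the transcript against 50.7%, and the part of base composition in these counts was not tested.

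In 8 of the 10 members the GGACT nearest to the end of the coding sequence lay in the 3′ UTR, and in Btg2 and Ier5 it lay in the coding sequence. In Jun, Jund and Atf3 it could not lie there, since their coding sequences lack the word. The same count was not made over other genes, so it is not read as a trait of the members. The distance from the end of the coding sequence was 24 bases in Jund, 119 in Ier2, 122 in Junb, 126 in Jun and 154 in Fos, and it was 834 in Atf3. The windows of the 5 members with the shortest distances in the 3′ UTR are shown because m6A is concentrated in that region (27 bases each, GRCm38, GGACT in capitals). They lie at chr8:70700096-70700122 (plus strand, Jund), chr8:84661952-84661978 (minus strand, Ier2), chr8:84977258-84977284 (minus strand, Junb), chr4:95050126-95050152 (minus strand, Jun) and chr12:85476601-85476627 (plus strand, Fos).
Jund: ggcgcatgcgcGGACTagctgcggtgg
Ier2: ggccaggggaaGGACTgaggagcgagg
Junb: gctcacacactGGACTccggcccgccc
Jun: gtacacaagatGGACTgggttgcgacc
Fos: gtgggcctcaaGGACTtgcaagcatcc
No m6A measurement of these sites was analysed here.

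**Figure D5:**
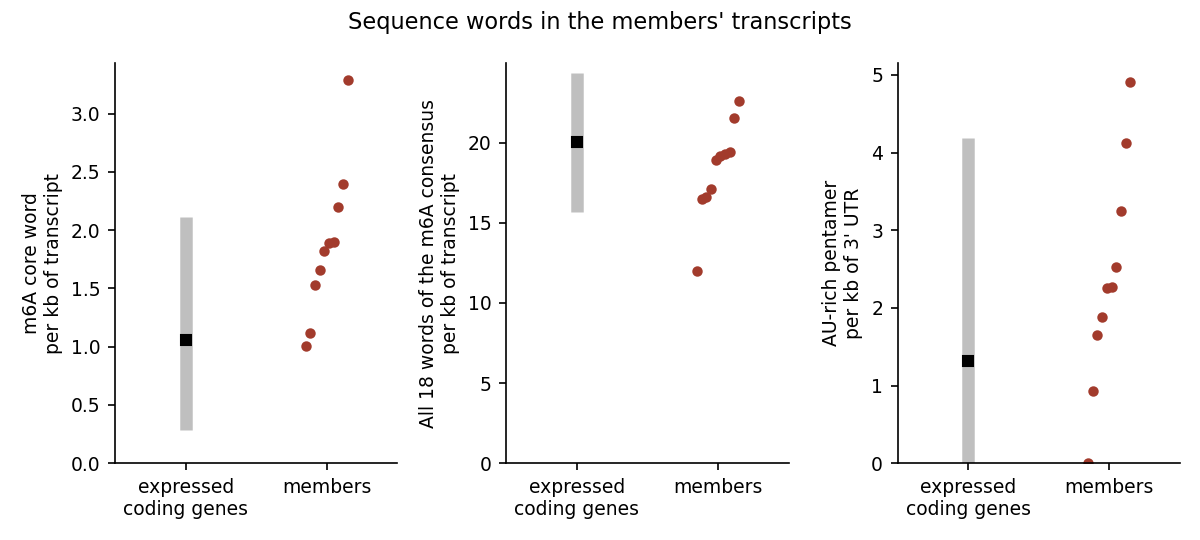
Density of GGACT (left), of all 18 consensus words (middle) and of ATTTA in the 3′ UTR (right), each per kb. Grey bars run from the 10th to the 90th percentile of expressed coding genes with the median as a black square, and red points are the 10 members in rising order. The members sit mostly above the square on the left and right (9 of 10 and 8 of 10) and mostly below it in the middle (2 of 10).

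Promoters from RefSeq (GRCm38.p6, 250 bases before to 50 bases after the annotated start) were held for 8 members, all but Egr1 and Ier2. They were rich in CpG, with a median of 20.5 CpG each against 7 over all 32851 promoters, and a median GC content of 61.5% against 52.7%. The counts ran from 3 CpG in Jund to 32 in Btg2. The 32851 promoters were not limited to expressed or coding genes, unlike the coding genes set beside the members' transcripts. How far the promoter differences follow from expression was not tested. The RefSeq and GENCODE starts are far apart for some genes: that of Jund lies 1210 bases upstream of the start of the gene in GENCODE, and that of Atf3, whose window held 27 CpG and 5 copies of the GGGCGG box described next, lies inside the GENCODE gene. The box GGGCGG, the core of an SP1 site, was present on either strand in 6 of 8 members and in 35.7% of all promoters. A TATAAA box was present on either strand in Fos and Junb and in 13.6% of all promoters. The palindromic cAMP response element TGACGTCA was found in Btg2 alone among the 8 and in 1.79% of all promoters. Neither the AP-1 site TGAGTCA (5.20% of all promoters) nor the CArG box of serum response elements (1.63%) had a match in these windows, which says only that those letters are not there.

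The windows of the TATAAA and TGACGTCA matches are shown to give their place relative to the start, which depends on the annotation (GRCm38.p6, motif in capitals, gene strand). In Fos (chr12:85473847-85473872, plus strand) the TATAAA box begins 33 bases before the start, which is the same in RefSeq and GENCODE. In Junb (chr8:84978733-84978758, minus strand) it begins at the RefSeq start itself, and so 30 bases before the GENCODE start. The Fos and Junb boxes therefore lie in a similar place when measured from the GENCODE starts. In Btg2 (chr1:134079304-134079331, minus strand) TGACGTCA begins 166 bases before the RefSeq start, which lies 35 bases upstream of the GENCODE start.
Fos: acagcgcttcTATAAAggcgccagct
Junb: acaaattcagTATAAAagcttggggc
Btg2: ttcccaataaTGACGTCAgtgagcgatg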

How the data were processed

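Total RNA was sequenced in 8 libraries, 4 with and 4 without dTAG-13. The authors removed rRNA reads with bowtie2, aligned the rest to strain-masked mm10 with STAR, kept unique alignments, removed duplicates with Picard and ran TEtranscripts, which calls DESeq2. The deposited signal used is the mean over all libraries of scaled read counts per gene. The other 5 columns hold the authors' own comparison (log2 fold change, standard error, statistic, p and adjusted p). They were not used, so dTAG-13 and untreated cells are not compared and no test was run. The methods give default counting parameters and spell out no strand setting, whereas the name of the deposited table carries the word reverse, so that setting is uncertain.

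Symbols were matched to GENCODE M21 (GRCm38), 16689 by their current name and 716 by a former one. No record was found for 192, and 32 were left out as ambiguous, leaving 17373 genes (98.7%). The transcript taken per gene was the protein-coding one with the longest coding sequence, then the longest overall. Words were counted with overlaps, on the RNA strand in transcripts and on both strands in promoters. The scaling steps were tested on simulated data and the word counts on short sequences with known answers. Python 3.11.15 with numpy 2.4.6 and pandas 2.3.3 was used. Members and lists were chosen with earlier results of these data known. All 10 members are named, with their families, the upstream factors and markers, and the 3 highest and 3 lowest of the other immediate early genes. Nr4a1 was added after its value was seen. Protein sequences were not analysed here.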

Additional observations from a re-analysis of the deposited data

How the results depend on the processing

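The count of members above the median gene was 7 with all exons as the length. It was 6 with 1 transcript per gene, with the exons of coding transcripts, among protein-coding genes and with no length, and 5 when the median was taken over genes whose mean count reached 10 and with the shortest coding transcript, a setting chosen after seeing the data. Ier2 was first per kb under every length tried, and Klf6 was first with no length. Junb passed Klf6 with 1 transcript per gene, the exons of coding transcripts and the shortest transcript (442 against 361 per kb in each). The count of members above the median density of GGACT was 9 over the transcript, 5 in the coding sequence and 2 with the 18 consensus words. In the 150 bases before the RefSeq start, TATAAA was found in 1 promoter and TGACGTCA in 0. Of 60 percentiles of single members under an alternative, 59 moved by more than counting error. Those of Ier2 ran from 76.3 to 94.6 and those of Egr1 from 23.9 to 42.1. No paired analysis was possible because the column used holds no value per library. For the same reason edgeR, DESeq2, leaving out replicates and clone as a covariate were not run. Counting error was 1.79% of the mean count for Klf6 and 9.04% for Atf3.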

Other observations

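Levels were also set beside exon number over all expressed coding genes. The median was 71.3 per kb over 344 single-exon coding genes whose mean count reached 10, 74.6 over 2359 genes with 2 to 4 exons and 85.9 over 10328 genes with more. The spread was wide within each class, with the 90th percentile at 1849 per kb for single-exon genes, and Jun at 74.5 per kb lay close to the median of its class while Ier2 at 872 per kb lay far above it.

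The largest of the 8 scaling factors recovered from the lowest values was 2.05 times the smallest. The column does not tie a factor to a named library.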
